A study of Homo sapiens with 3 samples.

Results

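The MHC class I antigen presentation genes described here are 9 of the 19220 genes in the count table: the heavy chains HLA-B, HLA-C, HLA-E and HLA-F, the light chain B2M, the peptide transporter subunits TAP1 and TAP2, the immunoproteasome subunit PSMB9 and the transactivator NLRC5. They were chosen by name from the pathway, and all 9 were found by symbol and passed the filter on low counts. RNA-seq was carried out to compare drug-resistant oral squamous cell carcinoma (OSCC) cells with the cells they came from. CAL27, a human OSCC line established from a tongue tumour and labelled wild type, was kept in drug-free medium. CAL27/5FU cells were kept in 10 μM 5-fluorouracil (5FU), which blocks thymidylate synthesis, and had been selected in rising concentrations of it. CAL27/OXA cells, the oxaliplatin-resistant derivative, were kept in 10 μM oxaliplatin (OXA), a platinum drug that crosslinks DNA. How CAL27/OXA cells were selected is not given in the sources used here. Both resistant lines grew in their drug, so that resistance and exposure cannot be told apart.

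For each line, 1 library was analysed, and the libraries held 41786182 (CAL27), 37297713 (CAL27/5FU) and 43455488 (CAL27/OXA) counts. The deposited tables hold 3 further columns whose names give the same lines with another number. No label used here ties them to a sample, so they were not analysed here, and whether they are replicates is not known. With 1 library analysed per line, differences were not checked against replicates and p-values were not calculated. The 95% intervals are exact Clopper-Pearson intervals on the pair of counts, or exact Poisson intervals on a single count, and cover counting error only. A log2 ratio compares 1 gene between 2 libraries after scaling of the counts, and genes past 2-fold are called higher or lower. Scaling by total counts alone put the median of all tested genes at 0.17 in CAL27/5FU and 0.14 in CAL27/OXA, and ratios slightly below 0 then turned positive. Levels of different genes were compared in FPKM, which is scaled to transcript length. CAL27/5FU and CAL27/OXA were both compared with the same CAL27 library.

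Class I molecules show peptides from inside the cell to CD8+ T cells. A heavy chain pairs with β2-microglobulin, the product of B2M, and receives a peptide that the proteasome has cut and the transporter TAP1-TAP2 has moved into the endoplasmic reticulum. Interferons are known to switch these genes on, in part through IRF1, NF-κB can act on the heavy chain promoters, and NLRC5 binds the class I promoters together with the RFX and NFY factors.

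The promoters of 7 of the 9 genes were found in the RefSeq table (GRCh38.p14). HLA-E and NLRC5 had no entry in it. The stretch from 200 to 31 bases before the start is shown for 6 genes, which take in the widest and the narrowest ratios described below (HLA-F and TAP2 in CAL27/5FU). Capitals mark forms of the interferon-stimulated response element (ISRE), namely GAAA repeated after any 2 bases and the shorter GAANNGAAA, the NF-κB consensus and CCAAT, the box bound by NFY, all searched on both strands. Each line reads 5′ to 3′ on the strand of the gene.
HLA-B (chr6:31357210-31357379, minus strand): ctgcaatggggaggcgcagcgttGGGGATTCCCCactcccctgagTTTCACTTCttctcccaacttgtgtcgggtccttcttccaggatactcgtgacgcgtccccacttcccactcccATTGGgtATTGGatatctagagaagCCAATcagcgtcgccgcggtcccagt
HLA-C (chr6:31272123-31272292, minus strand): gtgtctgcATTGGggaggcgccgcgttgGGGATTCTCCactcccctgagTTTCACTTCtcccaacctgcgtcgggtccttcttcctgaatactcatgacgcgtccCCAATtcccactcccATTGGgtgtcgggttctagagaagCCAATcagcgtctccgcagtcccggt
HLA-F (chr6:29723234-29723403, plus strand): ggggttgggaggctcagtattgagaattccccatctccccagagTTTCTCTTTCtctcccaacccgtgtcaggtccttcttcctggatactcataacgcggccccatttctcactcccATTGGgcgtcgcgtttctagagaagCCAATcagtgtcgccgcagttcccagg
B2M (chr15:44711317-44711486, plus strand): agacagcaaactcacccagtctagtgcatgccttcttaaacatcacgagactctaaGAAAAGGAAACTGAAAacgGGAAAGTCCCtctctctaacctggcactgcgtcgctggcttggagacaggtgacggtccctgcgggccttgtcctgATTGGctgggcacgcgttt
TAP1 (chr6:32853735-32853904, minus strand): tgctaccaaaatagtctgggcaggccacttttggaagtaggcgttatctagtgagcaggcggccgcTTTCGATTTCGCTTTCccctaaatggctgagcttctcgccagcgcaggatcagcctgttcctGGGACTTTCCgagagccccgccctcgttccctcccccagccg
TAP2 (chr6:32838770-32838939, minus strand): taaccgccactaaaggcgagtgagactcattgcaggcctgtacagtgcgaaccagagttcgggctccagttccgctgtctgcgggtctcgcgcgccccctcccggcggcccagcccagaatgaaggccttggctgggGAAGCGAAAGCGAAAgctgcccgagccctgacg

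At least 1 of the ISRE forms lay within the window of 250 bases before to 50 bases after the start in 6 of the 7 genes (HLA-B, HLA-C, HLA-F, B2M, TAP1 and TAP2), against 12.8% of the 27305 genes in the same table, each counted if any of its promoters had a match. TAP1 has 2 promoters there, and the second, which is not shown, held none of the motifs. The form of 10 letters occurred in HLA-F, B2M, TAP1 and TAP2, against 4.38% of all genes. The shorter form occurred in HLA-B, HLA-C and TAP2, against 9.31%, and in TAP2 it overlapped the longer form. An NF-κB consensus match lay in HLA-B, HLA-C, B2M and TAP1, against 13.3% of all genes, and in HLA-B 2 overlapping matches each read on both strands. CCAAT occurred in 6 of the 7 (all but TAP2), against 39.7%. Its matches in TAP1 and PSMB9 lay further than 200 bases before the start. They are the same bases read on opposite strands where the 2 windows overlap, so 1 site was counted for both genes. TGACG, the core of the site bound by CREB and ATF1, occurred in 5 of the 7 (all but HLA-F and TAP1), against 28.4%. The motifs were chosen with these promoters in view, and a match describes the letters and is not a site shown to be bound. The sequences are those of the reference, and the alleles of CAL27 may differ.

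Of the class I genes, B2M was the most abundant in every library and NLRC5 the least. B2M stood at 1450 FPKM in CAL27, compared with 1987 in CAL27/5FU and 2130 in CAL27/OXA, at rank 18, 7 and 7 among the 13676 tested genes. HLA-C was next at 631, 823 and 646 FPKM, followed by HLA-B at 126, 269 and 246 FPKM. The places of these 3 genes were the same in all libraries, with counting intervals that did not overlap.

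**Figure D1:**
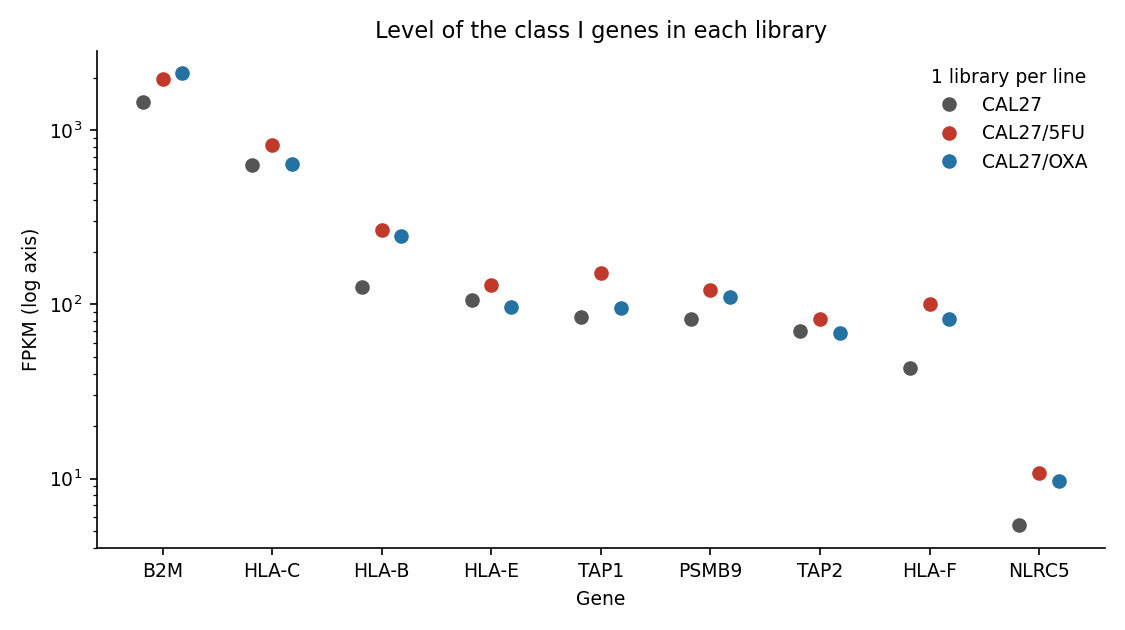
FPKM (log axis) of the 9 class I genes in the single library of CAL27, CAL27/5FU and CAL27/OXA, 1 point per library and genes ordered by their level in CAL27. All 9 points of CAL27/5FU lie above those of CAL27, and on this scale, which corrects for total counts alone, HLA-E and TAP2 are the 2 genes whose CAL27/OXA point lies below CAL27.

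Below them the order varied. In CAL27 the next genes were HLA-E (106 FPKM), TAP1 (85.3), PSMB9 (82.5), TAP2 (70.0) and HLA-F (42.9). TAP1 and PSMB9 had overlapping counting intervals, 83.6 to 87.1 and 79.9 to 85.3 FPKM. In CAL27/5FU, TAP1 stood above HLA-E, and in both resistant lines HLA-F stood above TAP2. In CAL27/OXA, PSMB9 stood above HLA-E and TAP1, whose intervals overlapped at 95.2 to 98.8 and 93.1 to 96.8 FPKM. The places of neighbours have no spread between cultures to be set against. Summed over the 9 genes, the level was 2600 FPKM in CAL27 against 3674 in CAL27/5FU and 3485 in CAL27/OXA.

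Against CAL27, 1 of the 9 genes, HLA-F, was more than 2-fold higher in CAL27/5FU, as were 8.46% of the genes tested. More than 2-fold lower were 0 of the 9, against 6.72% of the tested genes. More than 1.5-fold, 4 were higher (HLA-B, HLA-F, TAP1 and NLRC5), against 15.2% of the tested genes, and all 9 ratios were above 0, against 49.7%. The median log2 ratio of the 9 was 0.38, and that of all tested genes was -0.0035. The 10th to 90th percentiles of all tested genes were -0.76 and 0.87, and 7 of the 9 ratios lay between them, with HLA-B and HLA-F above.

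In CAL27/OXA, 0 of the 9 were past 2-fold, while 6.54% of the genes tested lay more than 2-fold above CAL27 and 9.28% more than 2-fold below. More than 1.5-fold, 3 were higher (HLA-B, HLA-F and NLRC5), against 14.1% of the tested genes. With the scaling used, 6 of the 9 ratios were above 0, against 50.5%. HLA-C, HLA-E and TAP2 were below 0, and HLA-C came out above 0 when counts were scaled by their totals alone. The median was 0.29, against 0.0055 for all tested genes.

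Set against each other directly, the resistant lines did not differ by more than 2-fold in any of the 9 genes, where 4.18% of the genes tested lay more than 2-fold higher in CAL27/OXA and 8.38% more than 2-fold lower. TAP1 was the 1 gene more than 1.5-fold lower in CAL27/OXA than in CAL27/5FU, against 15.1% of the tested genes. B2M was the 1 gene with a ratio above 0, against 50.8%. The median of the 9 was -0.22, and that of all tested genes was 0.0079.

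**Figure D2:**
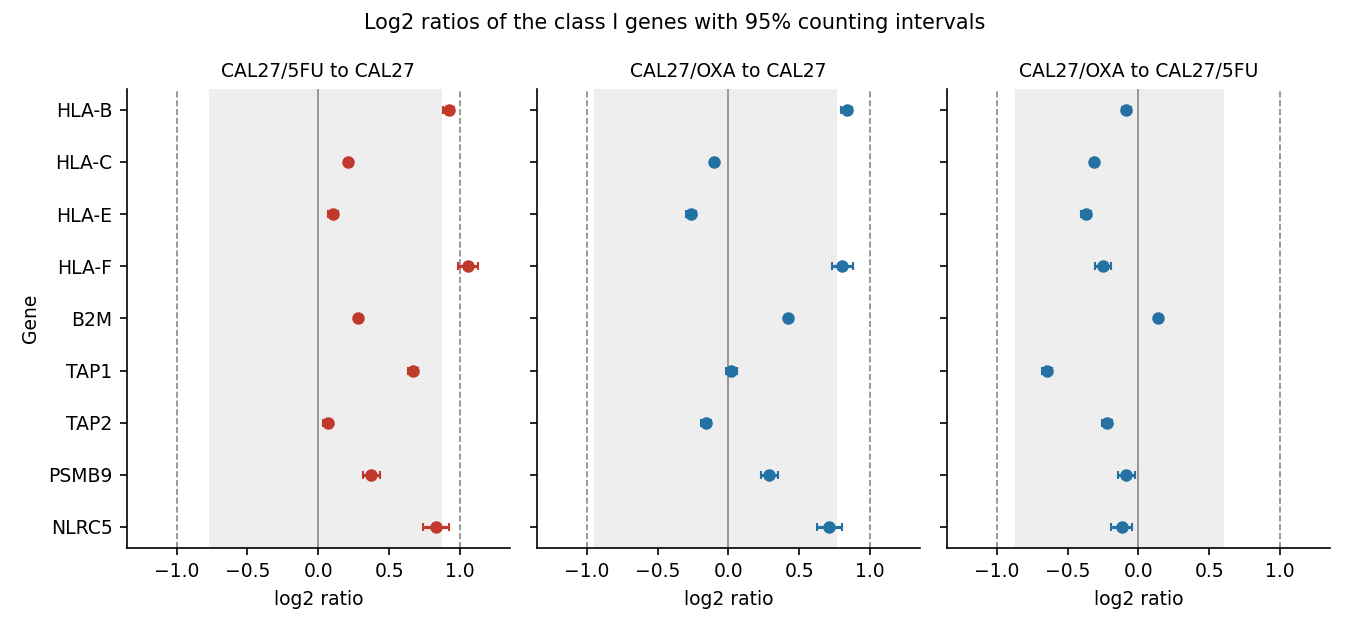
Log2 ratios of the 9 class I genes between the single libraries of each pair of lines (1 panel per pair), with exact 95% counting intervals as bars, the 10th to 90th percentiles of all tested genes in grey and 2-fold as dashed lines. HLA-B, HLA-F and NLRC5 lie furthest right in both comparisons with CAL27, TAP1 is at 0.67 in CAL27/5FU and 0.02 in CAL27/OXA, and HLA-C in CAL27/OXA (-0.10) turns to 0.03 when counts are scaled by their totals.

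Among these 4 heavy chains, HLA-B and HLA-F differed most from CAL27, and HLA-C and HLA-E least. HLA-B, a classical chain that presents peptides to CD8+ T cells, had 8489 counts in CAL27, compared with 16150 in CAL27/5FU and 17257 in CAL27/OXA. Both resistant libraries were well above CAL27 and close to each other. The log2 ratio was 0.92 (interval 0.88 to 0.96) in CAL27/5FU and 0.83 (0.80 to 0.87) in CAL27/OXA, a fold of 1.89 and 1.78, and -0.09 (-0.12 to -0.06) between the resistant lines. In bulk RNA, fewer cells making a transcript and less transcript per cell cannot be told apart.

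HLA-F, a nonclassical chain that is also found without peptide, had 2313, 4832 and 4611 counts in CAL27, CAL27/5FU and CAL27/OXA. CAL27 was again the lowest. The log2 ratio was 1.06 in CAL27/5FU, with an interval of 0.98 to 1.13 that reached below 2-fold, and 0.81 (0.73 to 0.88) in CAL27/OXA. Between the resistant lines it was -0.25 (-0.31 to -0.19).

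HLA-C, the classical chain that is also a ligand of killer cell immunoglobulin-like receptors, had 41845 counts in CAL27 against 48692 in CAL27/5FU and 44505 in CAL27/OXA. Its log2 ratio was 0.21 (0.19 to 0.23) in CAL27/5FU and -0.10 (-0.12 to -0.08) in CAL27/OXA, and the latter became 0.03 with scaling by total counts. HLA-E, which presents leader peptides of other class I chains to NKG2A on natural killer cells, had 11814, 12777 and 11221 counts. The log2 ratios of HLA-E were 0.11 (0.07 to 0.14) and -0.26 (-0.30 to -0.23). The most abundant heavy chain and HLA-E thus stayed well within 1.5-fold of CAL27 in both lines, while CAL27/OXA lay below CAL27/5FU by log2 ratios of -0.31 for HLA-C and -0.37 for HLA-E.

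The make-up of these 4 heavy chains differed between the libraries. HLA-C held 69.6% of their summed FPKM in CAL27, compared with 62.3% in CAL27/5FU and 60.3% in CAL27/OXA. HLA-B held 13.9%, 20.3% and 23.0%, and HLA-F 4.74%, 7.61% and 7.68%, so that both took a larger share in the resistant lines. HLA-E held 11.7%, 9.74% and 9.05%. HLA-G, a chain of the placenta that stands on the same list, had 0 counts in CAL27 and 7 in each resistant library and was not tested. The heavy chains are near-identical in parts and highly variable between people, and how reads shared between them, or carrying bases not in the reference, were counted is not given in the sources used here. Their part in these ratios was not tested.

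B2M, the light chain shared by all class I heavy chains, had 59825 counts in CAL27 against 73154 in CAL27/5FU and 91357 in CAL27/OXA. CAL27/OXA was the highest library, whereas CAL27/5FU had the highest FPKM for each of the 4 heavy chains among the 9. The log2 ratio was 0.28 (0.27 to 0.30) in CAL27/5FU, 0.42 (0.41 to 0.44) in CAL27/OXA and 0.14 (0.12 to 0.15) between them. The summed FPKM of these 4 heavy chains was 0.625 of that of B2M in CAL27 (interval 0.618 to 0.632), 0.665 (0.658 to 0.671) in CAL27/5FU and 0.503 (0.498 to 0.508) in CAL27/OXA. The lower ratio in CAL27/OXA came with a higher B2M and a lower HLA-C relative to it. HLA-C to B2M was 0.435 in CAL27, compared with 0.414 in CAL27/5FU and 0.303 in CAL27/OXA. HLA-E to B2M was likewise highest in CAL27 and lowest in CAL27/OXA, at 0.0732, 0.0648 and 0.0455. HLA-B to B2M, at 0.0869, 0.135 and 0.116, and HLA-F to B2M, at 0.0296, 0.0506 and 0.0386, were lowest in CAL27 and highest in CAL27/5FU.

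The transporter subunits, which work as a pair, had unlike ratios in CAL27/5FU. TAP1 had 9204 counts in CAL27 against 14697 in CAL27/5FU and 10654 in CAL27/OXA. TAP2 had 13611, 14315 and 13926 counts. CAL27/5FU stood apart for TAP1, and the 3 libraries were close for TAP2. The log2 ratio of TAP1 was 0.67 (0.63 to 0.71) in CAL27/5FU, 0.02 (-0.02 to 0.06) in CAL27/OXA and -0.65 (-0.68 to -0.61) between the resistant lines. For CAL27/OXA against CAL27 the interval of TAP1 held 0, which was the case for no other gene of the 9. The log2 ratio of TAP2 was 0.07 (0.03 to 0.10) and -0.16 (-0.19 to -0.12). The FPKM ratio of TAP1 to TAP2 was accordingly 1.22 in CAL27 (1.19 to 1.25), 1.85 (1.81 to 1.89) in CAL27/5FU and 1.38 (1.34 to 1.41) in CAL27/OXA. By the start sites of their RefSeq promoters, TAP1 lies head to head with PSMB9, 488 bases apart on opposite strands.

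PSMB9 (LMP2) replaces the constitutive proteasome subunit PSMB6 and alters the ends of the peptides made. It had 3615 counts in CAL27, compared with 4713 in CAL27/5FU and 5041 in CAL27/OXA, and log2 ratios of 0.38 (0.31 to 0.44) and 0.29 (0.23 to 0.35). Between the resistant lines the ratio was -0.09, while that of its neighbour TAP1 was -0.65. The FPKM ratio of PSMB9 to PSMB6 was 0.580 in CAL27 (0.556 to 0.606), 0.852 (0.818 to 0.888) in CAL27/5FU and 0.739 (0.711 to 0.768) in CAL27/OXA. Both resistant libraries stood above CAL27, beyond the counting intervals.

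The other replaceable subunits were compared in the same way. None of the 5 genes of the list was past 2-fold in either line, and none of the 3 constitutive counterparts was. Of all tested genes, 8.46% were more than 2-fold higher and 6.72% lower in CAL27/5FU, and 6.54% and 9.28% in CAL27/OXA. The same shares stand beside the counts of the lists below. PSMB8 (LMP7), which replaces PSMB5, had log2 ratios of 0.43 in CAL27/5FU and 0.25 in CAL27/OXA, and its FPKM ratio to PSMB5 was 0.820, 1.13 and 0.979 in CAL27, CAL27/5FU and CAL27/OXA. PSMB10 (MECL-1), which replaces PSMB7, was at -0.38 and 0.18, and its ratio to PSMB7 was 0.296, 0.340 and 0.292. In CAL27/5FU that ratio was the highest although PSMB10 itself was below CAL27, since PSMB7 was at -0.59. PSMB5 was at -0.04 and -0.01 and PSMB6 at -0.18 and -0.06. Summed over the 3 pairs, the ratio was 0.492 (0.481 to 0.503) in CAL27, 0.714 (0.699 to 0.730) in CAL27/5FU and 0.548 (0.537 to 0.558) in CAL27/OXA. The regulator subunits PSME1 and PSME2, which open the proteasome, were at -0.09 and 0.01 in CAL27/5FU and -0.16 and -0.07 in CAL27/OXA. Of the 12 other genes of the 20S proteasome, 0 were past 2-fold in either line, with medians of -0.12 (0.05 with total counts) and 0.03. PSMA7, on average the most abundant of them, was at -0.60 and -0.02. With total counts PSMB5 came out above 0 in both lines, PSME1 in CAL27/5FU, and PSMB6, PSME2 and PSMA7 in CAL27/OXA.

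**Figure D3:**
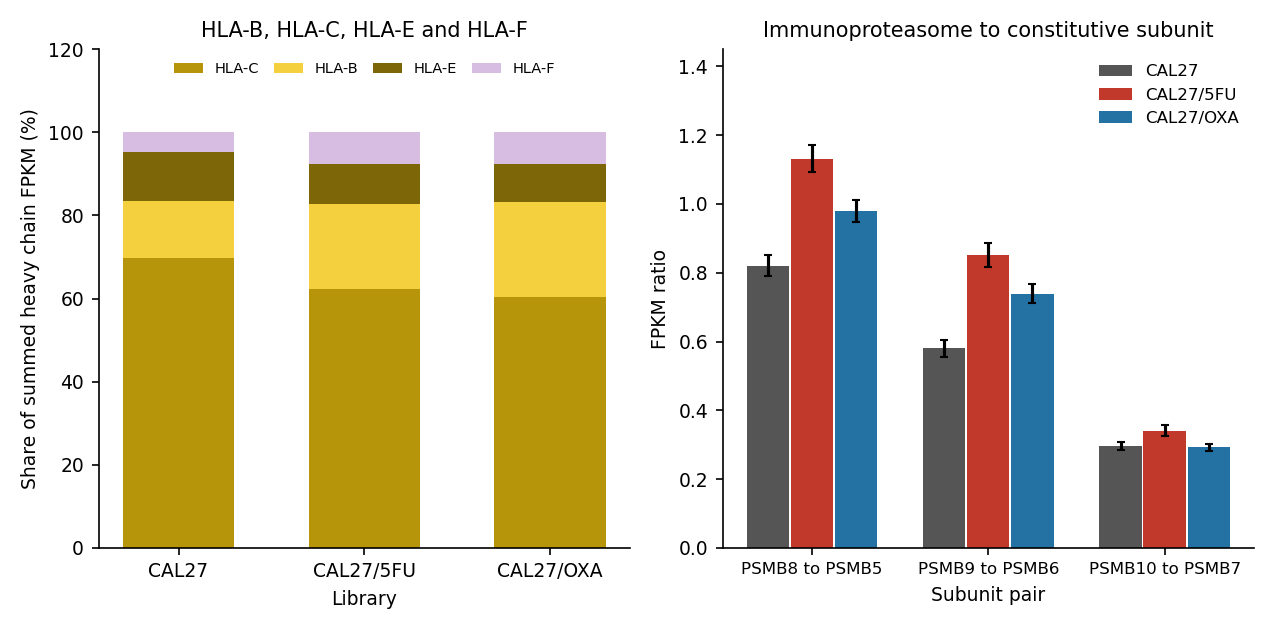
Left, share (%) of HLA-B, HLA-C, HLA-E and HLA-F in their summed FPKM in the single library of each line. Right, FPKM ratio of each immunoproteasome subunit to the constitutive subunit it replaces, with 95% counting intervals as bars: the share of HLA-C is 69.6% in CAL27 and 60.3% in CAL27/OXA, and each of the 3 subunit ratios is highest in CAL27/5FU.

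NLRC5, the transactivator of class I genes, was the lowest of the 9 and among the most different from CAL27. It had 1517 counts in CAL27 against 2717 in CAL27/5FU and 2838 in CAL27/OXA, or 5.39, 10.8 and 9.69 FPKM. The log2 ratio was 0.83 (0.74 to 0.93) in CAL27/5FU, 0.71 (0.62 to 0.81) in CAL27/OXA and -0.12 (-0.20 to -0.04) between them. It thus sat beside HLA-B and HLA-F in both lines. The other 10 genes of its list are the partners and further activators at class I promoters, and with NLRC5 0 of 11 were past 2-fold in either line, although NLRC5 itself passed in CAL27/5FU with total counts. The medians were 0.03 and 0.12. The RFX subunits went different ways, with RFX5 at 0.08 in CAL27/5FU and 0.26 in CAL27/OXA, RFXAP at 0.36 and 0.83, and RFXANK at -0.58 and -0.15. NFYA, NFYB and NFYC, the subunits that bind CCAAT, lay between 0.03 and 0.06 in CAL27/5FU and between 0.12 and 0.32 in CAL27/OXA. CREB1 and ATF1 were at -0.22 and -0.09 in CAL27/5FU and at -0.01 and 0.06 in CAL27/OXA. IRF1, the most abundant of the list at 58.3, 54.7 and 54.9 FPKM, was at -0.26 and -0.22, and IRF2 at -0.27 and -0.09. Scaled by total counts, ATF1 in CAL27/5FU and CREB1 and IRF2 in CAL27/OXA came out above 0.

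The genes that load peptides had lower median ratios than the 4 tested heavy chains (0.57 in CAL27/5FU and 0.35 in CAL27/OXA), and some lay below CAL27. None of the 10 genes of the list, which holds B2M, TAP1 and TAP2, was past 2-fold, and the medians were 0.05 in CAL27/5FU and -0.24 in CAL27/OXA. Tapasin (TAPBP), which bridges the transporter and the heavy chain, had 22067, 16581 and 15978 counts and log2 ratios of -0.42 and -0.66. TAPBPL (TAPBPR), a peptide editor related to it, had 1094, 745 and 685 counts and ratios of -0.56 and -0.86. CAL27 was the highest library for both. The chaperones calreticulin (CALR), calnexin (CANX), PDIA3 and HSPA5 were at -0.13, 0.04, 0.03 and 0.14 in CAL27/5FU, where CALR came out above 0 with total counts, and at -0.27, -0.37, -0.42 and -0.22 in CAL27/OXA. UGGT1, which checks the fold of the loaded complex, was at 0.28 and 0.14. Of the 8 peptidases that trim peptides before or after transport, 0 were past 2-fold. THOP1, on average the most abundant, was at 0.04 and 0.60. LAP3, a leucine aminopeptidase, had log2 ratios of 0.98, which became 1.16 and so past 2-fold with total counts, and 0.26.

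The interferon pathway was compared as the best known regulator of class I genes, and its target genes differed more between the resistant lines than the class I genes (a median of -1.29 against -0.22). Of 26 interferon-stimulated genes, 19 were more than 2-fold higher in CAL27/5FU and 0 lower, against 8.46% and 6.72% of all tested genes. Their median was 1.43. In CAL27/OXA 1 was higher (ISG20, at 1.06) and 0 lower, against 6.54% and 9.28%, with a median of 0.10. With total counts or FPKM 2 were higher there, ISG15 being at 1.04 with total counts. Between the resistant lines 17 were more than 2-fold lower in CAL27/OXA, against 8.38% of all tested genes. The antiviral gene MX2 had 2487, 10207 and 2386 counts, and IFIT1, which binds foreign RNA, had 3784, 14215 and 3926. ISG15, a ubiquitin-like modifier and the most abundant of the list in CAL27, had 6676, 25204 and 14270. MX2 and IFIT1 thus stood apart in CAL27/5FU, and ISG15 was intermediate in CAL27/OXA with log2 ratios of 1.91 and 0.91. Among the class I genes TAP1 was at 0.67 in CAL27/5FU and 0.02 in CAL27/OXA. Between the resistant lines HLA-B, HLA-F and NLRC5 were at -0.09, -0.25 and -0.12, and TAP1 at -0.65. The part of interferon in the class I values was not tested.

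Of 14 genes of interferon receptors and JAK-STAT signalling, 1 was more than 2-fold higher in each resistant line, with medians of -0.13 in CAL27/5FU, which turned to 0.04 with total counts, and -0.19 in CAL27/OXA. It was SOCS3, which dampens JAK signalling, at 1.37 and 1.13. IFNGR1, a chain of the interferon-γ receptor and on average the most abundant of them, had 7155, 5834 and 5965 counts and was at -0.30 and -0.45. Of the 10 interferon genes, 1 had enough counts to be tested: IFNE, an epithelial type I interferon, with 60, 117 and 78 counts. IFNG and IFNK had 0 counts in each library, which allows up to 0.0770 CPM (scaled counts) in CAL27 against 0.0766 in CAL27/5FU and 0.0675 in CAL27/OXA, as 3 counts would give. The 7 NF-κB genes had 0 past 2-fold in either line, with medians of -0.18 and -0.05 (the latter 0.08 with total counts), and the most abundant, the inhibitor NFKBIA, was at -0.18 and -0.29.

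Class II genes, which present peptides from outside the cell, mostly went in opposite directions in the resistant lines. Of 12 tested genes, 9 were more than 2-fold higher in CAL27/5FU and 0 lower, with a median of 1.67. In CAL27/OXA 2 were higher (HLA-DQB1 and HLA-DOB) and 8 lower, with a median of -1.49, and 1 of the 8, HLA-DPB1, had 3 counts there. The shares of all tested genes were 8.46% higher and 6.72% lower in CAL27/5FU, and 6.54% and 9.28% in CAL27/OXA. HLA-DRA had 750 counts in CAL27, compared with 2444 in CAL27/5FU and 102 in CAL27/OXA, and CIITA, the class II counterpart of NLRC5, had 422, 739 and 67. CIITA was thus lowest in CAL27/OXA, with a log2 ratio of -2.80, where NLRC5 was at 0.71. The class II genes from HLA-DQB1 to HLA-DPA1 lie around TAP1, TAP2 and PSMB9 on chromosome 6.

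**Figure D4:**
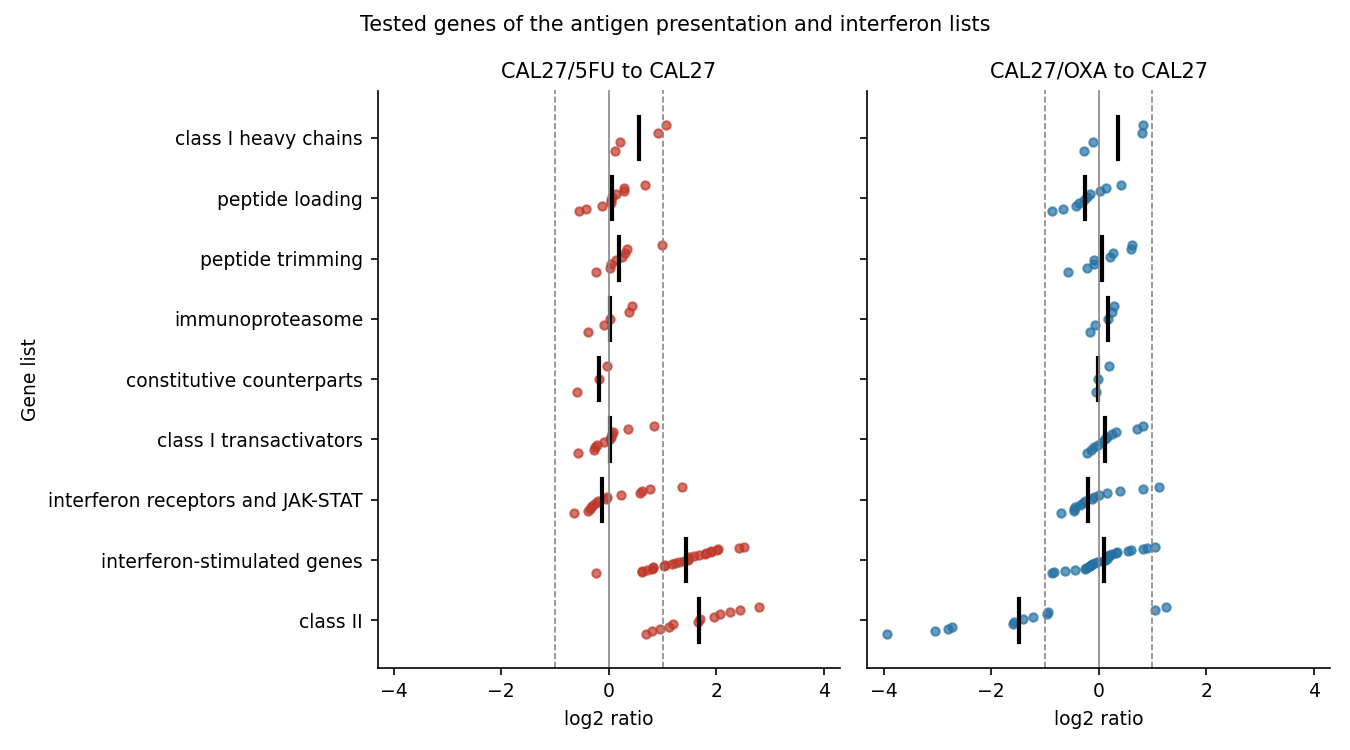
Log2 ratio to CAL27 of each tested gene of 9 lists (points) with the list median (bar) and 2-fold as dashed lines, CAL27/5FU left and CAL27/OXA right, 1 library per line. The medians of the interferon-stimulated and class II genes are 1.43 and 1.67 in CAL27/5FU and 0.10 and -1.49 in CAL27/OXA, while those of the heavy chains are 0.57 and 0.35.

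Other ligands on the cell surface that immune cells read were described beside the class I genes. Of 8 tested checkpoint ligands, 4 were more than 2-fold higher in CAL27/5FU and 0 lower, and 2 were higher and 1 lower in CAL27/OXA, the latter (VTCN1) on 3 counts. CD274 (PD-L1) had 466 counts in CAL27 against 1016 in CAL27/5FU and 1347 in CAL27/OXA, with log2 ratios of 1.11 and 1.34. PDCD1LG2 (PD-L2) had 65, 277 and 496 counts, with 2.05 and 2.71. Both ligands of PD-1 were thus higher in both resistant lines, and LGALS9 was at 1.33 and 0.01, and at -1.31 between the resistant lines. CD47, on average the most abundant of the list, was at -0.67 and 0.21. Of 13 tested class I-like genes and NKG2D ligands, 2 were higher and 1 lower in CAL27/5FU, the latter (RAET1L) on 1 count. In CAL27/OXA 2 of them were higher and 2 lower. Of all tested genes, 8.46% were higher and 6.72% lower in CAL27/5FU, and 6.54% and 9.28% in CAL27/OXA. ULBP1, a ligand of NKG2D, had 49, 175 and 183 counts and log2 ratios of 1.79 and 1.67. PROCR, on average the most abundant, was at 0.63 and 0.81.

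By position, 7 of the 9 genes lie in the MHC on chromosome 6 (GRCh38, GENCODE 29). HLA-F is at 29722775 to 29738528 and HLA-E at 30489467 to 30494205 on the plus strand, and HLA-C at 31268749 to 31272130 on the minus strand. The model of HLA-B, 31269491 to 31357188 on the minus strand, overlaps that of HLA-C on the same strand. TAP2 is at 32821833 to 32838780 and TAP1 at 32845209 to 32853978 on the minus strand. PSMB9 is at 32844136 to 32859585 on the plus strand, overlapping PSMB8 on the other strand. This model of PSMB9 also spans TAP1 without sharing an exon with it, and does not begin at the RefSeq start site given above. B2M is on chromosome 15 (44711487 to 44718877, plus strand) and NLRC5 on chromosome 16 (56989485 to 57083531, plus strand). The strandedness of the counting is not given in the sources used here, so reads in overlaps between opposite strands cannot be assigned. Strand could not separate reads in the overlap of HLA-B and HLA-C, and how those were counted is not given either.

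The class I genes were set beside their neighbours that do not present antigen. Between the ends of HLA-F and PSMB9, 84 such genes were tested. In CAL27/5FU 2 were more than 2-fold higher (2.38%, against 8.46% of all tested genes) and 4 lower (4.76%, against 6.72%), with a median of -0.07. In CAL27/OXA 1 was higher (1.19%, against 6.54%) and 15 were lower (17.9%, against 9.28% of all tested genes and 7.05% on the rest of chromosome 6), with a median of -0.06. Taking the 5 nearest such genes on each side, the median around HLA-B was -0.40 in CAL27/5FU and -0.31 in CAL27/OXA, where HLA-B itself was at 0.92 and 0.83. Those of TAP2 had a median of -0.03 in CAL27/5FU, and of 1.07 when antigen presentation genes were counted among the neighbours. TAP2 itself was at 0.07. The neighbours of HLA-E were at 0.08 in CAL27/5FU, close to the 0.11 of HLA-E, and at 0.14 in CAL27/OXA, where HLA-E was at -0.26. For B2M the neighbours were at 0.12 and -0.06. For NLRC5 they were at -0.03 in CAL27/5FU, and at 0.84 in CAL27/OXA, close to the 0.71 of NLRC5 itself. Of these 10 neighbours, which include MT1F and MT1X, 3 were more than 2-fold higher and 1 lower in CAL27/OXA. The other tested genes of chromosome 16 had a median of 0.01 there, with 7.32% higher and 14.5% lower. The part of position in these ratios was not tested.

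**Figure D5:**
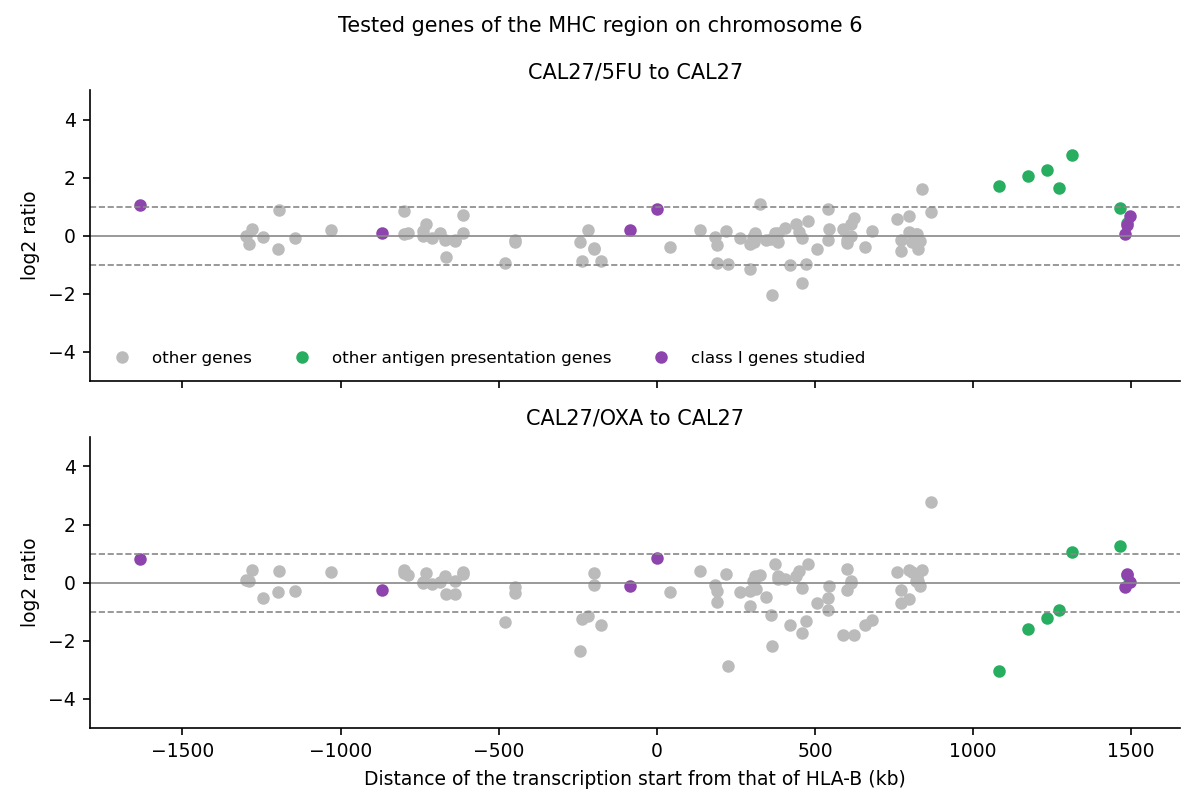
Log2 ratio to CAL27 of the tested genes between HLA-F and PSMB9 on chromosome 6 against the distance (kb) of their start from that of HLA-B, with the class I genes studied, other antigen presentation genes and all other genes coloured and 2-fold as dashed lines (1 library per line). The 84 other genes have medians of -0.07 in CAL27/5FU and -0.06 in CAL27/OXA, and the 6 class II genes near the right end all lie above 0 in CAL27/5FU, while 4 of them lie below 0 in CAL27/OXA.

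The label of the cells was checked with markers. Of 9 squamous epithelial markers, 7 were more than 2-fold lower in CAL27/5FU and 5 in CAL27/OXA, against 6.72% and 9.28% of all tested genes. All 9 were detected in each library. Their summed level was 6757, 1797 and 2514 FPKM in CAL27, CAL27/5FU and CAL27/OXA. KRT5, a basal keratin and on average the most abundant, had 286124, 46083 and 72716 counts, and KRT14 had 58222, 948 and 8423. Not all of them differed so: EPCAM was at log2 ratios of 0.39 and 0.03 and CDH1 at -0.14 (0.03 with total counts) and -0.16, and TP63 and SFN were at 0.13 and 0.08 in CAL27/OXA. The part of these markers in the class I values was not tested.

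Leukocytes express class I genes at a high level, and of their 12 markers 8, 7 and 6 had counts in CAL27, CAL27/5FU and CAL27/OXA. Their summed level was 56.0, 55.0 and 74.2 FPKM, and CD68, a lysosomal gene that other cells also express, was the most abundant at 3143, 1827 and 5055 counts. PTPRC (CD45) had 2, 0 and 0 counts, CD3D and MS4A1 had 0 in each library, and CD3E had 7 in each. CORO1A, an actin-binding protein of leukocytes, had 301, 412 and 390 counts and log2 ratios of 0.44 and 0.18. CD14, a monocyte marker, had 637, 1290 and 341 counts, and its part in the class I values was not tested. ITGAM had 176, 27 and 38 counts. Of 8 fibroblast markers 5, 6 and 6 had counts, with a summed level of 7.51, 11.9 and 14.9 FPKM, LUM the most abundant per length in CAL27/5FU and CAL27/OXA at 5.24 and 9.54 FPKM, and COL3A1 and THY1 at 0 in each. Of 5 endothelial markers 4, 5 and 4 had counts, with a summed level of 0.443, 2.30 and 1.06 FPKM and CDH5 the most abundant at 43, 338 and 163 counts.

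The genes outside the lists whose pair of ratios lay nearest to the median pair of the 9 (0.38 and 0.29), among 11398 genes that averaged 100 counts or more, were THAP7, CCRL2, TRAF3IP1, TIMM23 and IFI16. The distance was 0.0060 for THAP7 and 0.016 for IFI16 on the log2 scale. IFI16, a DNA sensor, had 12136, 15782 and 17110 counts and log2 ratios of 0.37 (0.34 to 0.41) and 0.31 (0.27 to 0.34). With 3 libraries such a likeness describes the values alone.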

How the data were processed

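The 9 genes, the gene lists and the tests were chosen with earlier results of these data known. The libraries were made from total RNA with a NEBNext Ultra kit and sequenced on an Illumina NovaSeq by Novogene. The submitters' processing notes name CASAVA 1.8, HISAT2 2.0.5 and GRCh38 (hg38). The counting tool, annotation and strandedness are not given in the sources used here. The authors deposited raw read counts by gene symbol (19220 genes) and FPKM (19225 genes), which are scaled by total counts, since count, FPKM and total gave 1 gene length within 0.1% for 100% of the 14367 genes counted in all 3 libraries. The other 3 columns of per-sample values, named like second samples of the same lines, match no labelled sample and were not used here.

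Counts were scaled with TMM factors of 0.932, 1.05 and 1.02 for CAL27, CAL27/5FU and CAL27/OXA (edgeR 4.0.16, R 4.3.3) and turned into log2 CPM with a prior count of 2. Genes averaging 10 or more counts (13676) were kept as the tested genes, for which a ratio past 2-fold was called. The calculation was checked on simulated data. Intervals came from scipy 1.17.1. The study's own DESeq2 test needs replicates and was not run. The lists (18, with 181 genes) were written from general knowledge and overlap, and some genes of these pathways are not reported here. Genes named are the 9, all genes of the peptide loading, immunoproteasome, constitutive subunit and transactivator lists, for each other list up to 6 genes past 2-fold and the one highest in mean FPKM, and the 5 nearest to the median pair. HLA-G, LAP3, ISG20, HLA-DOB, IFNG, IFNK, EPCAM, CDH1, TP63, SFN, CORO1A and the markers at or near 0 were named after their values were seen. Positions are from GENCODE 29 and promoters from RefSeq (GRCh38.p14). Alternatives were scaling by total counts, by the upper quartile or by DESeq2 1.42.0 size factors, no filter or a mean of 50 counts, prior counts of 0.5 and 5, FPKM with pseudocounts of 1 and 0.1, and thresholds of 4-fold, 1.5-fold and the whole interval past 2-fold.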

Additional observations from a re-analysis of the deposited data

Results flagged for a closer look

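For 3 of the class I genes and for the class II list, CAL27/5FU lay on 1 side of CAL27 and CAL27/OXA on the other. The difference itself was not tested, since 1 library was analysed per line. HLA-C was at a log2 ratio of 0.21 in CAL27/5FU and -0.10 in CAL27/OXA, a difference of -0.31 between the resistant lines, and its CAL27/OXA value turned to 0.03 with scaling by total counts. HLA-E was at 0.11 and -0.26, a difference of -0.37. TAP2 was at 0.07 and -0.16, a difference of -0.22. The class II genes had medians of 1.67 and -1.49, and the median of their ratios between CAL27/OXA and CAL27/5FU was -3.54.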

How the results depend on the processing

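The number of class I genes past 2-fold in CAL27/5FU, 1 as reported, was 3 with total counts (HLA-B, HLA-F and NLRC5), 2 with FPKM at either pseudocount, 4 at 1.5-fold, and 0 at 4-fold or with the whole interval past 2-fold. In CAL27/OXA and between the resistant lines it was 0 throughout, apart from 3 and 1 at 1.5-fold. Of the 27 ratios of the 9 genes, 1 changed sign in any of the 12 alternatives, that of HLA-C in CAL27/OXA. The filters and thresholds leave these ratios as they are, so that only the scalings, prior counts and FPKM could change a sign. Scaling by total counts moved the median of all tested genes to 0.17 in CAL27/5FU and 0.14 in CAL27/OXA, and the share of higher genes among those past 2-fold from 55.7% to 67.2% and from 41.3% to 51.1%. Of the list genes, 50 were past 2-fold in CAL27/5FU (15 at 4-fold, 78 at 1.5-fold), 29 in CAL27/OXA (11, 54, 14 with FPKM and a pseudocount of 1, and 17 with the whole interval) and 38 between the resistant lines (19 and 58). By list, 1 peptidase (LAP3) was past 2-fold in CAL27/5FU with total counts, the upper quartile or FPKM, against 0 as reported, and 1 transactivator (NLRC5) with total counts, against 0. With FPKM and a pseudocount of 1, 0 class II genes were higher and 4 lower in CAL27/OXA, against 2 and 8, and of the class I-like genes and NKG2D ligands 0 were past 2-fold in either line. Of all genes, 2076 were past 2-fold in CAL27/5FU, and 3454 without the filter, 814 with FPKM and a pseudocount of 1, 690 at 4-fold, 4005 at 1.5-fold and 1342 with the whole interval. The same numbers were 2163, 3273, 849, 708, 4255 and 1390 in CAL27/OXA, and 1717, 2842, 602, 519, 3461 and 1028 between the resistant lines. Leaving antigen presentation genes out of the neighbours, chosen after seeing the data, took the class I genes whose neighbours had a median past 2-fold from 1 to 0 in CAL27/5FU and from 2 to 0 between the resistant lines. No paired analysis was possible because 1 library was analysed per line, and none was left out in turn. The smallest count of a class I gene was 1517, and counting error alone takes the interval of HLA-F in CAL27/5FU below 2-fold. The spread between cultures is unknown, and the intervals leave it out.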
